A study of Homo sapiens with 13 samples.

Results

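The genes described here are 10 transcription factors that mark amnion and lateral plate or cardiac mesoderm: ISL1, HAND1, HAND2, TBX2, TBX3, TBX4, TBX5, TBX20, MEIS1 and MEIS2. They were chosen by symbol and not by a rule on their values, but with earlier results of these data known. All 10 were found in both count tables among 61541 human genes. The cells were RUES2, a human embryonic stem cell line, carrying a GFP::SMAD4 fusion, and every group, the controls included, shared this genotype and the ROCK inhibitor in the medium (RI). The time series held 7 libraries treated with 100 ng/mL BMP4 and 5 µM IWP2, an inhibitor of WNT secretion (WNTi), taken at 0 (2 libraries), 4, 12, 20, 28 and 42 h. The 0 h labels name the treatment too and were read as cells collected at its start. The dose response held 6 libraries taken at 5 h: BMP4 and IWP2 at the same doses with LDN-193189 (LDN), which blocks BMP receptor kinases, at 0, 10, 30, 100 or 300 nM, and untreated cells in mTeSR with neither BMP4, IWP2 nor LDN. Only 0 h was replicated, the labels do not say whether its libraries came from separate cultures, and p-values over time measure the spread between these libraries or about a line over hours. The dose response held no replicates, and its p-values rest on the scatter of single libraries about a line over LDN dose.

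ISL1 is a LIM-homeodomain factor, HAND1 and HAND2 are bHLH factors, the TBX genes encode T-box factors, and MEIS1 and MEIS2 are TALE homeodomain factors that bind DNA with PBX and HOX proteins. BMP ligands act through receptor kinases that phosphorylate SMAD1 and SMAD5, which enter the nucleus with SMAD4 and bind target genes. Several of these factors are used in the second heart field, limb bud and extraembryonic mesoderm, and ISL1 and HAND1 are also used as markers of primate amnion.

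The libraries held 37957385 to 71333471 counts in the time series and 15600931 to 33989998 in the dose response, so that 3 counts, the limit allowed by a count of 0, stood for 0.0421 to 0.0790 CPM (counts scaled to the size of the library) and 0.0883 to 0.192 CPM. Intervals on single libraries are exact 95% Poisson intervals and cover counting error only. The 2 experiments differed in RNA kit and library preparation (depletion of ribosomal RNA against polyA selection), and no test was made across them. Amnion markers were high at 42 h: all 9 on the list (GATA3, GATA2, TFAP2A, TFAP2C, GABRP, VTCN1, IGFBP3, DLX5 and WNT6) were at 1 CPM or more, 4 of them at 0 h, and their summed level went from 27.8 CPM at 0 h to 3907 CPM. By the trend over hours 6 of these 9 rose, led by WNT6 (0.0334 CPM at 0 h and 273 CPM at 42 h) and DLX5 (0.0202 and 47.6 CPM). The slopes of the other 3, GATA3, GATA2 and TFAP2A, did not pass, but all 3 were higher at 42 h than at 0 h (log2 fold changes of 11.01, 9.03 and 11.50; adjusted p of 2.89e-120, 1.75e-102 and 1.49e-124, edgeR). Of 6 pluripotency markers 5 fell, led by PRDM14 (log2 fold change over 42 h of -7.98) and NANOG (-6.68), while POU5F1, a core pluripotency factor, was at 1145 CPM at 42 h. Of 11 mesoderm and cardiac muscle markers 7 were tested, 4 rose, led by NKX2-5 (8.71) and the cardiac actin gene ACTC1 (4.99), and TNNT2, cardiac troponin T, fell (-1.90). KDR, a VEGF receptor of early mesoderm, was at 64.3 CPM at 0 h and 6.06 CPM at 42 h, and its slope did not pass (adjusted p = 0.0593) although it was lower at 42 h than at 0 h (-3.17; adjusted p = 1.16e-14). The early mesoderm genes TBXT and MESP1 were at 0.180 and 0.310 CPM at 42 h. Of 9 trophoblast markers 3 were tested: VGLL1 rose (no counts at 0 h and 6.47 CPM at 42 h) and SDC1 fell (-2.75). The slope of HLA-G did not pass, but HLA-G was higher at 42 h (2.81 CPM) than at 0 h (0.949 CPM), by 1.78 on the log2 scale. CGA was at 0.163 CPM at 42 h. Of 3 endoderm and 3 neural markers none passed the 1 CPM minimum, with summed levels at 42 h of 0.703 and 0.735 CPM. At other times the endoderm marker FOXA2 was at 3.05 CPM (0 h) and 0.154 CPM (4 h), and SOX17 reached 1.49 CPM (28 h). So amnion markers and the cardiac genes NKX2-5 and ACTC1 were expressed at 42 h, while TNNT2 and KDR were lower than at 0 h and TBXT and MESP1 were near 0. Whether the markers' changes had a part in those of the 10 factors was not tested.

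HAND1 rose most over 42 h, followed by TBX3, ISL1 and MEIS1. All factors but TBX4 and TBX5 had an onset, which was not the same for all of them. HAND1 and TBX3 were raised by 4 h, ISL1, TBX2 and TBX20 by 12 h, MEIS1 by 20 h, and HAND2 and MEIS2 by 28 h, while TBX4 and TBX5 stayed under 0.34 CPM in all 7 libraries and passed no test. A factor's onset is the earliest time at which it passed an adjusted p of 0.05 against 0 h and did so in the same direction at every later time, by quasi-likelihood tests in edgeR, with p-values adjusted over all genes tested by the method of Benjamini and Hochberg. HAND2 and MEIS2 did not reach the 1 CPM minimum, and their onset is from the fit with no minimum on the level. Whether onsets differ between factors was not tested. In bulk RNA, more cells expressing a gene and more RNA per expressing cell cannot be told apart.

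**Figure D1:**
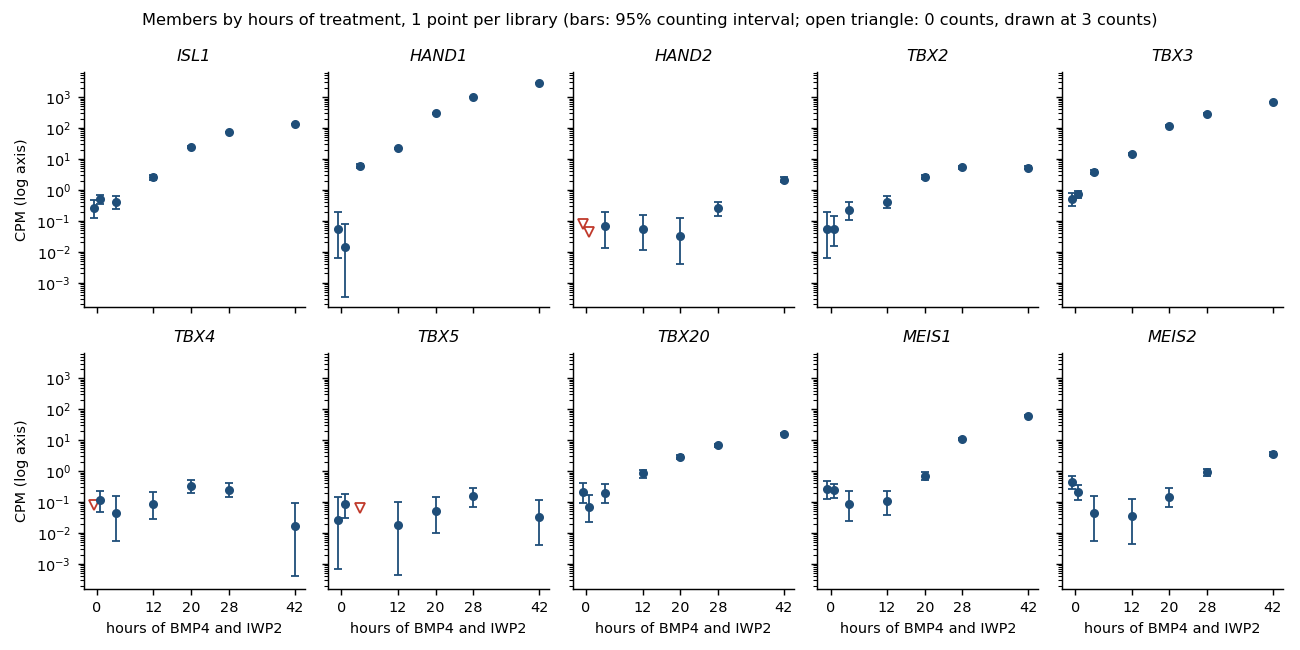
Level of each of the 10 factors in CPM (log axis) against hours of BMP4 and IWP2, with 1 point for each library, its exact 95% Poisson interval, and an open triangle at 3 counts where no count was found. HAND1 (5.98 CPM) and TBX3 (3.71 CPM) are far above both 0 h libraries at 4 h, ISL1 and TBX20 are within the 0 h range at 4 h and above it at 12 h, and MEIS1 is above it at 20 h, while TBX4 and TBX5 stay under 0.34 CPM.

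ISL1 (ENSG00000016082), the LIM-homeodomain factor of second heart field progenitors and amnion, lies at chr5:51383448-51394730 on the plus strand of GRCh38. It was at 0.263 and 0.505 CPM in the 0 h libraries, 0.397 CPM at 4 h, 2.56 CPM at 12 h, 24.2 CPM at 20 h, 74.1 CPM at 28 h and 137 CPM at 42 h. The 4 h library lay between the 0 h libraries, and each library from 12 h on was above all earlier ones. The ratio of counts at 42 h over 0 h was 325 (95% counting interval 243 to 444), and the log2 slope was 0.24 ± 0.03 (SE) per hour with an adjusted p of 0.000327 (edgeR, 7 libraries). Against 0 h the change was -0.12 ± 0.52 on the log2 scale at 4 h and 2.61 ± 0.39 at 12 h, with adjusted p of 0.999 and 1.12e-09. The steepest rise was from 12 to 20 h, by 3.32 ± 0.42 on the log2 scale, and the step from 28 to 42 h (1.05 ± 0.37) had an adjusted p of 0.051.

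The 250 bases before the ISL1 start (chr5:51383198-51383447, plus strand, from RefSeq on GRCh38.p14) are shown because a second transcript that moved with ISL1 starts inside them, ISL1-DT on the other strand. Capitals mark matches to CANNTG (the E-box bound by bHLH factors) and to CAGAC, the short site of SMAD4, on either strand.
ISL1: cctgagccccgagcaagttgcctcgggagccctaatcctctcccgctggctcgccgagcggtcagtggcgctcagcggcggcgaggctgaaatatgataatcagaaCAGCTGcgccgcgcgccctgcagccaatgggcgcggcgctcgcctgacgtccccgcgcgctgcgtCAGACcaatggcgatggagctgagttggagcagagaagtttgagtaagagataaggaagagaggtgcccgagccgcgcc
The stretch holds 1 match to each, which do not overlap. Of 35116 promoters of the same length 61.8% hold CANNTG and 38% hold CAGAC. ISL1-DT (ENSG00000259663, chr5:51372736-51383332, minus strand) begins 115 bases upstream of ISL1. It was at 0.237 and 0.0701 CPM at 0 h, 0.154 CPM at 4 h, 0.645 CPM at 12 h, 3.27 CPM at 20 h, 8.94 CPM at 28 h and 15.4 CPM at 42 h. Like ISL1 it was within the 0 h range at 4 h and above it from 12 h on, and its ratio of 42 h over 0 h was 121 (71.5 to 221). Whether the counting used strand is not given in the sources used here, but these neighbours share no base.

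HAND1 (ENSG00000113196), a bHLH factor needed for extraembryonic mesoderm and heart, lies at chr5:154474972-154478227 on the minus strand. It was at 0.0527 and 0.0140 CPM in the 0 h libraries, which held 2 and 1 counts, and at 5.98 CPM at 4 h, 22.1 CPM at 12 h, 297 CPM at 20 h, 1036 CPM at 28 h and 2919 CPM at 42 h. Every later library was above every earlier one. With 3 counts in all at 0 h the ratio of 42 h over 0 h was 106353, with a counting interval of 36391 to 515720. At 42 h 16 of the 61541 genes, HAND1 included, had a CPM at or above that of HAND1. Its log2 slope was 0.34 ± 0.06 per hour with an adjusted p of 0.00244, and at 4 h the adjusted p against 0 h was 3.36e-35 (edgeR), which rests on the spread of the 0 h pair. From 0 to 4 h the change was 7.56 on the log2 scale. The later steps were 1.92 ± 0.43 from 4 to 12 h and 3.83 ± 0.45 from 12 to 20 h. Those from 20 to 28 h and from 28 to 42 h were 1.84 ± 0.42 and 1.66 ± 0.41, and all of these later steps passed.

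The 250 bases before the HAND1 start (chr5:154478228-154478477, minus strand, from RefSeq on GRCh38.p14) are shown beside those of ISL1 as the stretch of the factor with the earliest and largest response. Matches to the E-box, to the SMAD4 site or to the GC-rich SMAD1 and SMAD5 element (GGCGCC) would stand in capitals, and there are none.
HAND1: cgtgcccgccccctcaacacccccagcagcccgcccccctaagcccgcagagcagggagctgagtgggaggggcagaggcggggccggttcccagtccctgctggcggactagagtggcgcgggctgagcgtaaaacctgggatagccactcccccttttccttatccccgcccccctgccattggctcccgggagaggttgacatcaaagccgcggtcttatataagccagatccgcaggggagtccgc
RefSeq stretches were at hand for 8 of the 10 factors, all but TBX2 and TBX3. GGCGCC stood in those of HAND2, TBX20 and 1 of the 2 TBX5 starts, and in 16.4% of all promoters of this length. CAGAC stood in those of ISL1, TBX4, both TBX5 starts and 1 of the 2 MEIS2 starts. AGGTGT, a T-box site, stood in none (9.57% of all), and TGACAG, a MEIS site, in 1 TBX5 start only (13% of all). These counts describe letters in a short window and no binding was measured.

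HAND2 (ENSG00000164107, chr4:173524969-173530229, minus strand), the paralog of HAND1 used in limb bud and heart, appeared late and low. It had no counts in either 0 h library, 3 counts (0.0662 CPM) at 4 h, 3 (0.0537 CPM) at 12 h, 2 (0.0330 CPM) at 20 h, 15 (0.254 CPM) at 28 h and 130 (2.12 CPM) at 42 h. The libraries up to 20 h were at 3 counts or fewer, and those at 28 and 42 h were above them. Against the limit of 3 counts over both 0 h libraries the level at 42 h was at least 77.4-fold higher. HAND2 did not reach the 1 CPM minimum of the test, at a mean of 0.362 CPM over the 7 libraries. With no minimum on the level its onset was at 28 h. It reached a minimum of 0.2 CPM only through the 42 h library, so nothing is read from its calls at that minimum. With a minimum of 0.2 CPM it rose over hours (adjusted p = 0.000383) and was higher than at 0 h at 28 h (2.56e-05) and 42 h (8.26e-20; edgeR). HAND2-AS1, a transcript of the other strand that overlaps HAND2 by 2960 bases, was at 0.184 and 0.252 CPM at 0 h, 0.485 CPM at 4 h and 0.719 CPM at 42 h, a ratio of 42 h over 0 h of 3.14 (1.88 to 5.36). Unlike HAND2 it was present from 0 h on.

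TBX3 (ENSG00000135111, chr12:114670255-114684175, minus strand), a T-box repressor of heart and limb, was with HAND1 the earliest to rise. It was at 0.501 and 0.715 CPM at 0 h, 3.71 CPM at 4 h, 14.0 CPM at 12 h, 120 CPM at 20 h, 292 CPM at 28 h and 702 CPM at 42 h, so that no later library overlapped an earlier one. The ratio of 42 h over 0 h was 1095 (867 to 1405). The log2 slope was 0.27 ± 0.03 per hour (adjusted p = 0.000437), and the change at 4 h was 2.48 ± 0.39 (adjusted p = 1.30e-08; edgeR). Of its steps after 4 h the one from 20 to 28 h (1.31 ± 0.39) had an adjusted p of 0.0681. TBX3-AS1, which overlaps TBX3 by 1884 bases on the other strand, had no counts at 0 or 4 h and reached 0.931 CPM at 42 h, at least 33.9-fold above the limit at 0 h.

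TBX2 (ENSG00000121068, chr17:61399843-61409466, plus strand), the nearest relative of TBX3, levelled off. It was at 0.0527 and 0.0561 CPM at 0 h, 0.221 CPM at 4 h, 0.412 CPM at 12 h, 2.61 CPM at 20 h, 5.45 CPM at 28 h and 5.23 CPM at 42 h. The last pair differed by less than their counting intervals (4.87 to 6.08 and 4.67 to 5.83 CPM), and the step from 28 to 42 h was 0.11 ± 0.49 on the log2 scale with an adjusted p of 0.973 (edgeR). The slope was 0.17 ± 0.03 per hour (adjusted p = 0.00173). At 4 h its 10 counts against 6 at 0 h gave a ratio of 4.02 (1.32 to 13.5), with an adjusted p of 0.265 across genes. TBX2-AS1 spans all 9624 bases of TBX2 on the other strand and held 17 counts or fewer in every library, so it could add little to TBX2 even if reads of both strands were pooled.

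TBX20 (ENSG00000164532, chr7:35202430-35254100, minus strand), a factor of the cardiac lineage, was at 0.211 and 0.0701 CPM at 0 h, 0.199 CPM at 4 h, 0.842 CPM at 12 h, 2.84 CPM at 20 h, 6.74 CPM at 28 h and 16.3 CPM at 42 h. As with ISL1, 4 h lay within the 0 h range and 12 h above it. The slope was 0.18 ± 0.01 per hour (adjusted p = 0.000116), the ratio of 42 h over 0 h 137 (79.7 to 258).

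TBX4 (ENSG00000121075, chr17:61452404-61485110, plus strand), a factor of hindlimb and allantois, lies 42.9 kb from TBX2, and TBX5 (ENSG00000089225, chr12:114353911-114408442, minus strand), a factor of heart and forelimb, lies 262 kb from TBX3. The neighbours did not share the rise. TBX4 had 0 and 8 counts at 0 h, 2 at 4 h, 5 at 12 h, 20 (0.330 CPM) at 20 h, 15 (0.254 CPM) at 28 h and 1 (0.0163 CPM) at 42 h. TBX5 had 1 and 6 counts at 0 h, none at 4 h, 1 at 12 h, 3 at 20 h, 9 (0.152 CPM) at 28 h and 2 at 42 h. For TBX4 the 20 and 28 h libraries were above the others, yet with no minimum on the level its adjusted p at 20 h was 0.105 and that of its slope 0.588, and TBX5 had a slope with an adjusted p of 0.635 (edgeR). The counting ratio of TBX4 was 3.68 (1.34 to 12.6) for 20 h over 12 h and 0.0644 (0.00153 to 0.418) for 42 h over 28 h. The intervals of its other steps held 1. They cover counting error only, with 1 library at each of these times. At these depths changes of a few counts were not detectable.

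MEIS1 (ENSG00000143995, chr2:66433452-66573869, plus strand), a TALE cofactor of HOX proteins, was the latest of the strongly expressed factors. It was at 0.263 and 0.238 CPM at 0 h, 0.0882 CPM at 4 h, 0.107 CPM at 12 h, 0.710 CPM at 20 h, 11.0 CPM at 28 h and 62.0 CPM at 42 h. The 4 and 12 h libraries lay under both 0 h libraries, at 4 and 6 counts, but neither passed (adjusted p of 0.371 and 0.366). The steps then ran to 2.78 ± 0.63 from 12 to 20 h, 3.98 ± 0.43 from 20 to 28 h and 2.66 ± 0.38 from 28 to 42 h on the log2 scale, and all 3 passed (adjusted p of 0.00134, 1.22e-16 and 3.80e-10; edgeR). The slope was 0.22 ± 0.02 per hour (adjusted p = 0.000449), and the ratio of 42 h over 0 h was 251 (172 to 381). MEIS1-AS3 held 15 counts or fewer in every library. MEIS1-AS2, all of whose 5134 bases lie inside MEIS1 on the other strand, was without counts at 0 h, reached 0.931 CPM by 28 h and 3.35 CPM by 42 h, and was thus at least 122-fold above the limit at 0 h. Reads of both could not be told apart without strand.

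MEIS2 (ENSG00000134138, chr15:36889204-37101299, minus strand), its paralog, had its lowest counts at 4 and 12 h and its highest at 28 and 42 h. It was at 0.448 and 0.210 CPM (17 and 15 counts) at 0 h, 0.0441 CPM at 4 h and 0.0358 CPM at 12 h (2 counts each), 0.149 CPM at 20 h, 0.931 CPM at 28 h and 3.56 CPM at 42 h. In CPM the 4, 12 and 20 h libraries were under both 0 h libraries and the 28 and 42 h libraries above them. In FPKM the early order was not the same: the 0 h libraries were at 0.60 and 0.06 FPKM, so that 4 h (0.16) and 20 h (0.17) lay between them and only 12 h (0.03) under both. MEIS2 did not reach the 1 CPM minimum, at a mean of 0.769 CPM. With no minimum on the level its onset was at 28 h. It reached a minimum of 0.2 CPM only through the 28 and 42 h libraries, so nothing is read from its rise at that minimum. With a minimum of 0.2 CPM it fell by 2.89 ± 0.94 on the log2 scale at 4 h (adjusted p = 0.0444) and by 3.10 ± 0.92 at 12 h (adjusted p = 0.0121), where each library held 2 counts, and rose by 1.65 ± 0.54 at 28 h (adjusted p = 0.0143) and 3.80 ± 0.50 at 42 h (adjusted p = 9.38e-13; edgeR). Its slope (adjusted p = 0.0169) no longer passed without the 42 h library (adjusted p = 0.318).

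**Figure D2:**
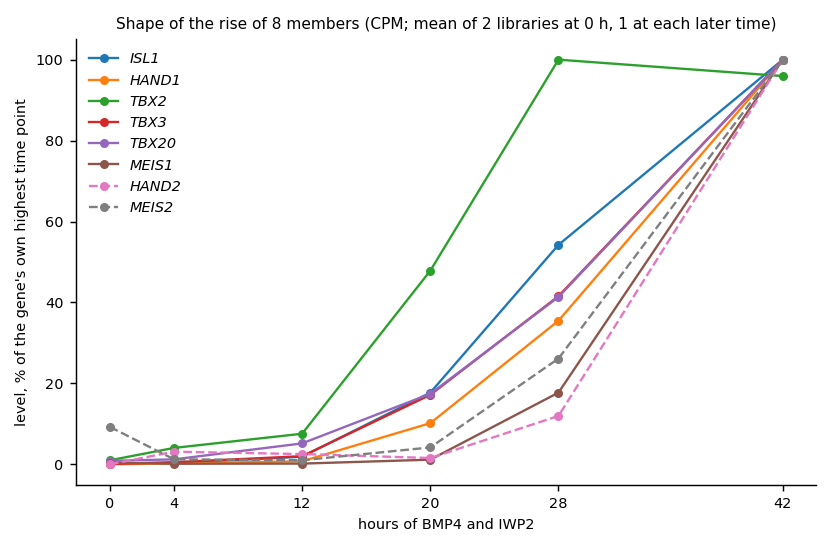
Level of 8 factors over hours of treatment as a percent of each factor's own highest time point, from CPM (mean of 2 libraries at 0 h, 1 library at each later time). TBX2 is at 100% at 28 h and 95.9% at 42 h, ISL1 at 54.2% at 28 h, and MEIS1 and HAND2 at 17.7% and 12.0%.

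Measured against each factor's own maximum, the factors stood in this order at 28 h: TBX2 was at 100% of its highest level, ISL1 at 54.2%, TBX3 at 41.6%, TBX20 at 41.3%, HAND1 at 35.5%, MEIS2 at 26.1%, MEIS1 at 17.7% and HAND2 at 12.0%. This order differs from that of the onset, in which HAND1 and TBX3 came before ISL1 and TBX2. With 1 library at 28 h and 42 h the spread of these percentages was not measured, and TBX3 and TBX20 differ by less than the counting error of TBX20 (6.09 to 7.43 CPM at 28 h).

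Of the 10 factors 6 passed the 1 CPM minimum in the time series, and all 6 averaged under 0.61 CPM at 0 h, so they passed it only through later libraries. All 6 rose over hours, where 19.2% of 15976 genes tested did, and nothing is read from that count. With no minimum all 10 were tested and 8 rose, against 9.71% of 39033 genes. At 0.2 CPM 8 of 8 rose, against 16.8% of all. Of these HAND1, HAND2, TBX2 and TBX20 averaged under 0.2 CPM at 0 h and reached the minimum only through later libraries. MEIS2 (0.329 CPM at 0 h) needed its 28 and 42 h libraries. ISL1, TBX3 and MEIS1 averaged 0.384, 0.608 and 0.251 CPM at 0 h, above that minimum. Nothing is read from the count of 8 of 8 either, nor from the counts by time and step that follow for the 6. Against 0 h, 2 of the 6 were higher at 4 h (4.39% of all genes), 5 at 12 h (7.04%), and all 6 at 20 h (12.4%), 28 h (13.3%) and 42 h (19.9%). The step from 4 to 12 h took up ISL1, HAND1 and TBX3 (0.782% of all genes rose), that from 12 to 20 h all 6 (1.62%), that from 20 to 28 h ISL1, HAND1 and MEIS1 (0.92%), and that from 28 to 42 h HAND1, TBX3, TBX20 and MEIS1 (3.14%). These tests have 1 residual degree of freedom, from the 0 h pair, and each later library is assumed to vary as that pair does.

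**Figure D3:**
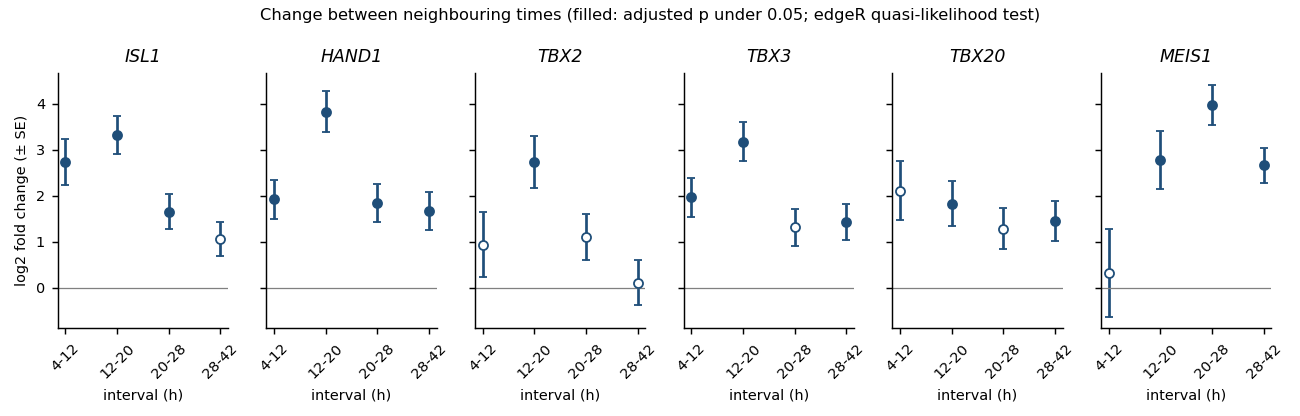
Log2 fold change (± SE) between neighbouring times from 4 h on, for the 6 factors that passed the 1 CPM minimum, from edgeR's quasi-likelihood fit. Filled points have an adjusted p under 0.05. The steps from 0 to 4 h are not drawn, and that of HAND1 was 7.56. Of the steps drawn, the one from 12 to 20 h is filled for all 6. It is the largest of those drawn for ISL1, HAND1, TBX2 and TBX3, while MEIS1 has its largest step from 20 to 28 h (3.98).

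Levels of different genes can be compared only per length, in FPKM (fragments scaled by gene length and library size). At 42 h the order was HAND1 (2028 FPKM), TBX3 (180), ISL1 (78.4), MEIS1 (26.8), TBX20 (10.4), MEIS2 (2.23), HAND2 (1.59), TBX2 (1.57), and TBX4 and TBX5 (0.01 each). HAND1 was 25.8-fold above ISL1 and 1275-fold above its paralog HAND2, TBX3 was 114-fold above TBX2, and MEIS1 was 12.0-fold above MEIS2. HAND2 and TBX2 differed by less than the counting error of HAND2 (1.77 to 2.52 around 2.12 CPM). At 20 h MEIS1 (0.74 FPKM) was under TBX20 (1.82) and close to TBX2 (0.77). At 0 h all 10 were at 0.6 FPKM or less in both libraries.

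**Figure D4:**
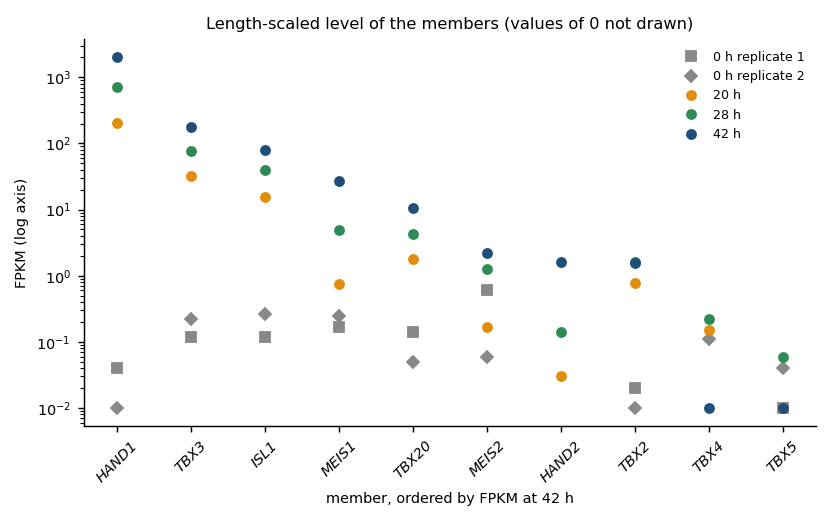
FPKM (log axis) of the 10 factors, ordered by the 42 h library, in both 0 h libraries and at 20, 28 and 42 h. HAND1 is highest from 20 h on (207 FPKM at 20 h, 2028 at 42 h), and TBX4 and TBX5 are at 0.01 FPKM at 42 h.

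At 5 h LDN lowered HAND1 in steps and TBX3 with it. HAND1 was at 3.76 CPM with 0 nM LDN (108 counts), 2.35 CPM with 10 nM, 1.01 CPM with 30 nM, 0.289 CPM with 100 nM and 0.0603 CPM (2 counts) with 300 nM, and had no counts in untreated cells. Each dose lay under the one before it. Relative to 0 nM, 62.6% (95% counting interval 46.3 to 84.4) was left with 10 nM, 27.0% (17.7 to 40.2) with 30 nM, 7.70% (3.43 to 15.2) with 100 nM and 1.61% (0.192 to 5.94) with 300 nM. HAND1 fell by 1.22 ± 0.12 on the log2 scale for each step of dose (adjusted p = 1.11e-05; edgeR, 5 libraries), and 10.9% of 14874 genes tested fell. It was the only one of the 10 to pass the 1 CPM minimum in this experiment, and it did so only through the libraries with 0 to 30 nM LDN, so nothing is read from that share. With no minimum its slope was -1.22 per step (adjusted p = 5.07e-12), and 3 of 9 factors tested fell, against 5.26% of 31851 genes. BMP4 without LDN was at least 19.5-fold above untreated cells, taking 3 counts as the limit of the untreated library. Each of these groups is 1 library, and differences from untreated cells have no replicate check. A difference between 300 nM LDN and untreated cells, at 2 and 0 counts, was not detectable at this depth.

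TBX3 was at 2.99 CPM with 0 nM LDN, 1.29 CPM with 10 nM, 0.707 CPM with 30 nM, 0.482 CPM with 100 nM, 0.181 CPM with 300 nM and 0.256 CPM untreated. It too was lower at each dose than at the one before, and the 300 nM and untreated libraries (6 and 4 counts) overlapped in their intervals. Of its level with 0 nM, 43.3% (29.4 to 62.9) was left with 10 nM and 6.05% (2.16 to 13.7) with 300 nM. Its mean of 0.986 CPM was just under the 1 CPM minimum. With a minimum of 0.2 CPM it fell by 0.94 ± 0.10 for each step (adjusted p = 3.47e-05), as 8.39% of genes did. The ratio of 0 nM LDN over untreated cells, 86 and 4 counts, was 11.7 (95% counting interval 4.40 to 43.8).

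ISL1 was at 0.974 CPM with 0 nM LDN (28 counts), 0.382 CPM with 10 nM, 0.338 CPM with 30 nM, 0.322 CPM with 100 nM, 0.241 CPM with 300 nM and 0.128 CPM (2 counts) in untreated cells. The library without LDN was above the rest, and those with 10 to 300 nM overlapped in their intervals. With a minimum of 0.2 CPM its slope was -0.46 ± 0.15 (adjusted p = 0.0481). Without the 0 nM library it was -0.20 with an adjusted p of 0.683. It also lost the call without the 30, 100 or 300 nM library (adjusted p of 0.065, 0.0886 and 0.125), at slopes of -0.45, -0.49 and -0.54. The ratio of 0 nM LDN over untreated cells, 28 and 2 counts, was 7.60 (1.92 to 65.8). By the fit over dose with a term for BMP4, HAND1 was above untreated cells, as 23% of 14877 genes were, and with a minimum of 0.2 CPM all 3 factors tested were, as 18.1% of genes were. HAND1 and ISL1 reached the 0.2 CPM minimum only through libraries with BMP4, while TBX3 was at 0.256 CPM in untreated cells. ISL1 lost its call without the 30 or the 100 nM library. These calls set single libraries side by side and do not test the conditions. Whether the slopes of HAND1, TBX3 and ISL1 differ from each other was not tested.

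**Figure D5:**
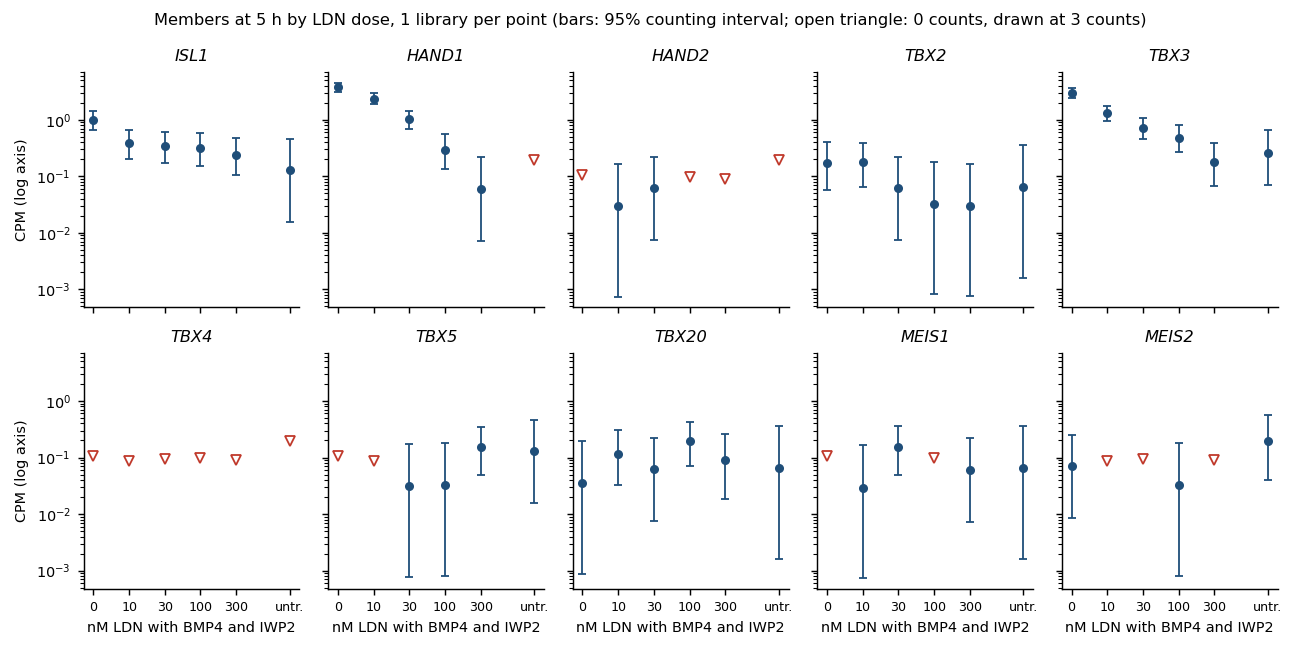
Level of the 10 factors in CPM (log axis) at 5 h by LDN dose, and in untreated cells at the right (untr.), with 1 library for each point, its exact 95% Poisson interval, and an open triangle at 3 counts where no count was found. HAND1 goes from 3.76 CPM with 0 nM to 0.0603 CPM with 300 nM LDN and TBX3 from 2.99 to 0.181 CPM, while TBX4 has no counts in any library.

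The other 7 factors were near or at the limit at 5 h. TBX2 held 5 and 6 counts with 0 and 10 nM LDN, 2 with 30 nM and 1 in each of the other libraries. TBX20 held 1 to 6 counts, MEIS1 0 to 5, TBX5 0 to 5, MEIS2 0 to 3 and HAND2 0 to 2. TBX4 had none, which allows up to 0.0883 CPM in the deepest and 0.192 CPM in the shallowest library. No dependence on dose was detectable for these 7 at this depth.

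The early time and the 5 h dose series can be set side by side without a test, since their libraries were made differently. HAND1 was at 5.98 CPM at 4 h and 3.76 CPM at 5 h without LDN, TBX3 at 3.71 and 2.99 CPM, TBX2 at 0.221 and 0.174 CPM, and ISL1 at 0.397 and 0.974 CPM. MEIS1 was at 0.0882 CPM at 4 h and had no counts at 5 h.

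For the 5 factors that averaged 2.5 CPM or more across the 6 times, the genes of most similar shape were sought among 13651 genes at that level, by the Euclidean distance of CPM divided by each gene's maximum over the 6 times, 0 meaning the same shape. The points share their libraries, and the distances are descriptions. Among the 3 nearest to ISL1 were ANKRD1 (0.0487) and ISL1-DT (0.0561). Those of HAND1 were SOWAHA (0.0304), ABCA4 (0.0355) and GDF6 (0.0522), the last a BMP family ligand. TBX3 and TBX20 shared FN1, fibronectin, as the nearest gene (0.0278 and 0.0287) and ARHGAP29 as the 3rd (0.0479 and 0.0527), and were each other's 2nd (0.0335). Nearest to MEIS1 were SLC8A1 (0.0252), a sodium-calcium exchanger, MSX1 (0.0279), a homeobox gene induced by BMP, and FAM89A (0.0352). Between the factors, HAND1 was 0.0936 from TBX3 and 0.202 from ISL1, and MEIS1 0.401 from ISL1.

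Relatives and partners of the 10 factors formed 4 lists of 45 genes, whose share of calls over hours was near that of all genes. Of 33 tested over hours 6 rose and 5 fell, where 19.2% of all genes rose and 17.5% fell. Of 27 tested by LDN dose 6 rose and 8 fell, where 10.4% and 10.9% of all genes did, and whether these shares differ was not tested. Of 12 other T-box genes 5 were tested over hours, of which TBX6 rose (1.47 CPM at 0 h and 6.16 CPM at 42 h) and MGA fell (152 and 78.5 CPM). EOMES, which specifies mesendoderm, was at 0.260 CPM at 0 h, 3.52 CPM at 20 h and 0.294 CPM at 42 h, and its slope did not pass (adjusted p = 0.659). The median slope of these 5 was 0.022 per hour, against -0.00011 over all genes. Of the 9 TALE partners of MEIS, all tested, PKNOX2 rose (3.94) and PBX3 fell (-0.99), and their median slope was -0.0024. By LDN dose none of 3 T-box genes tested passed, and of 8 TALE genes 2 rose and 3 fell.

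Of 14 LIM partners and relatives of ISL1 10 were tested. LMO1, a LIM-only protein that binds LDB1, rose by 7.34 and SSBP3, which binds LDB1, by 1.13, while LMO3 fell by 5.60 and the LIM-homeodomain gene LHX4 by 3.02 on the log2 scale. LDB1, the adaptor that pairs with ISL1, was at 163 CPM at 0 h and 157 CPM at 42 h (adjusted p = 0.610), and the median slope was 0.0064 per hour. ISL2, the paralog of ISL1, was at 0.247 CPM at 0 h and 0.0980 CPM at 42 h. By LDN dose 1 of 9 tested rose and 5 fell, SSBP3 among the latter. Of 10 bHLH partners and relatives of HAND 9 were tested, of which TCF21 (4.24) and TWIST1 (1.82) rose and MSC fell (-3.11). The E-proteins TCF3, TCF4 and TCF12, with which HAND proteins dimerize, did not pass (adjusted p of 0.560, 0.156 and 0.552), and the median slope was -0.0039. By LDN dose 3 of 7 tested rose, MSC by 0.45, TCF15 by 0.14 and TCF3 by 0.042 per step (adjusted p of 0.00160, 0.0331 and 0.0408; edgeR), and none fell.

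Of 19 lateral plate and cardiac mesoderm factors 11 were tested, with a median slope of 0.076 per hour. NKX2-5, the cardiac homeobox factor, rose by 8.71 and ZFPM2, a GATA4 cofactor, by 3.91, MYOCD and IRX4 rose too, and FOXH1 (-2.33) and SALL4 (-1.08) fell. NKX2-5 was at 0.0535 CPM at 0 h, 4.41 CPM at 20 h and 17.3 CPM at 42 h. GATA4 was at 0.0622 CPM at 0 h and 2.26 CPM at 42 h and GATA5 at 0.163 and 55.8 CPM, and their slopes did not pass (adjusted p of 0.0587 and 0.110) although both were higher at 42 h than at 0 h (log2 fold changes of 5.18 and 8.63). Over the 6 times MEF2C was at most at 0.389 CPM and PRRX1 at 0.197 CPM. By LDN dose 5 of the 19 were tested, and GATA5 and MYOCD fell and FOXH1 rose.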

How the data were processed

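Cells of the human RUES2 GFP::SMAD4 line were profiled by bulk RNA-seq in 7 time series and 6 dose response libraries. The authors trimmed reads with Cutadapt, aligned them to GRCh38 with STAR 2.7.8a and deposited RSEM 1.3.3 expected counts and FPKM per gene; the ENSEMBL release and strand setting are not given in the sources used here. The deposited expected counts were rounded to whole numbers, and 5 reporter features stayed in library totals but out of tests. The members and gene lists were chosen with earlier results of these data known.

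Genes averaging 1 CPM or more were tested with edgeR 4.0.16 (quasi-likelihood, TMM, Benjamini-Hochberg over all genes; R 4.3.3) over hours, against 0 h, over the step of LDN dose (0, 10, 30, 100, 300 nM as equal steps), and, with that line and a term for BMP4, against the untreated library; a call is an adjusted p under 0.05. The last comparison also differs in IWP2, has 1 library on each side and takes its error from the scatter about the dose line, so its p-values are not printed. The fits were tested on simulated data. Alternatives were library totals, DESeq2 1.42.0 size factors and Wald test, minima of 0.2 CPM and none, steps in place of hours, the study's SMAD4 level in place of dose, untreated cells as a further dose step, and leaving out each library. Ratios have exact binomial 95% intervals, and log2 ratios of levels used a pseudocount of 0.1 CPM. Named were all 10 members, their antisense and divergent transcripts, the 3 genes of nearest shape, and from each list the 2 tested genes with the largest rise and fall among those called. LDB1, EOMES, ISL2, the E-proteins, POU5F1, CGA, GATA4, GATA5, MYOCD, IRX4, TBXT, MESP1, GATA3, GATA2, TFAP2A, KDR, TCF15, MEF2C, PRRX1, HLA-G, FOXA2 and SOX17 were named after their values were seen. A few genes that these rules or lists cover are not reported here. Positions are from GENCODE 44.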

Additional observations from a re-analysis of the deposited data

How the results depend on the processing

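The onset times of the 6 factors tested at 1 CPM were the same with library totals, DESeq2 size factors, the DESeq2 Wald test and both lower minima, and all 6 rose over hours in every alternative, the left-out libraries included. HAND1 fell with LDN in each alternative. Leaving out libraries at the 0.2 CPM minimum was chosen after seeing the data. In 410 comparisons of a factor's result with an alternative, 396 kept their direction and side of the threshold, 10 lost the call, 3 gained it and 1 changed sign without a call (TBX2 from 28 to 42 h with library totals, -0.060). Members that rose from 28 to 42 h were 7 with a minimum of 0.2 CPM, adding ISL1, HAND2 and MEIS2. Members that fell with LDN, and members above untreated cells, were 3 each (HAND1, TBX3, ISL1) with a minimum of 0.2 CPM and with none. At 0.2 CPM ISL1 lost its call against untreated cells without the 30 or the 100 nM library. Its call over dose was lost without the 0, 30, 100 or 300 nM library. The untreated comparison has no replicate check. With the DESeq2 Wald test the genes rising were 396 at 4 h, 724 at 12 h, 71 from 4 to 12 h, 137 from 12 to 20 h, 87 from 20 to 28 h and 329 from 28 to 42 h, against 701, 1125, 125, 259, 147 and 502 with edgeR, and TBX2 and TBX20 lost their 12 to 20 h call and TBX20 its 28 to 42 h call, with log2 fold changes (2.73, 1.83 and 1.44) that rounded to the same values as with edgeR. Without the 42 h library 1935 genes rose and 1408 fell over hours, against 3072 and 2793. Library totals shifted the median of all genes at 42 h to -0.25 and gave 2121 rising and 4069 falling over hours, 2415 and 3963 at 42 h (3173 and 2851 with TMM), and 4475 and 2409 against untreated cells (3418 and 3276 with TMM). Leaving out either 0 h library left 2337 to 3433 genes rising and 2018 to 3188 falling over hours. In FPKM the log2 ratio of 42 h over 0 h of MEIS1 was 6.44 (7.47 in CPM) and of TBX2 3.86 (5.11); the cause was not tested. Tests against 0 h without a 0 h library had no residual degrees of freedom and were not run. No paired analysis was possible because only 0 h has replicate numbers.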
